A study of Mus musculus with 6 samples.

Results

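Forkhead genes encode transcription factors that share a winged-helix DNA-binding domain, the forkhead box. The members described here are the rows of the deposited table whose symbol is Fox followed by a letter from a to s and a number, without Foxc1, Foxc2 and Foxm1. The rule gave 41 genes of 49671 rows, and 21 of the 41 had a mean of at least 20 over the 6 libraries, against 15330 of all 49671 rows. The study sequenced bulk RNA of LKPR EPCAM+ cells, epithelial cells grown from squamous carcinoma of mouse skin, whose labelled alleles are Lgr5CreER, KrasLSL-G12D, p53fl/fl and Rosa26-YFP+/+. All groups share this genotype, puromycin-selectable lentiviral transduction, 6 days of culture and a sort for live YFP+ EPCAM+ cells. The groups were cells carrying the empty vector, cells knocked down (KD) for Ntn1, the gene of the secreted guidance ligand netrin-1, and cells knocked down for Unc5b, the gene of one of its receptors. Each group had 2 libraries. The number of hairpins and of transduced lines behind each knock-down is not given in the sources used here, and no source names separate cultures for the 2 libraries of a group. The p-values therefore weigh differences only against the spread of these libraries, and that spread may be technical.

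The forkhead domain binds DNA mainly through its recognition helix, which lies in the major groove. FOXA factors are known as pioneers that can bind closed chromatin, and FOXO factors are held in the cytoplasm when AKT phosphorylates them downstream of growth factor receptors. FOXF1, FOXF2 and FOXL1 are known from mesenchyme next to epithelia, where hedgehog signals induce them. In skin, FOXN1 is known for hair shaft and keratinocyte differentiation, and FOXQ1 for hair and for carcinoma cell invasion.

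The codons of the recognition helix are shown for 6 of the 9 members that passed the test in at least 1 comparison with the empty vector, because genes that rose and genes that fell can be compared in the part that reads DNA. The stretch of 30 bases was found by translating GENCODE M21 transcripts (GRCm38) and searching for a fixed residue pattern. The pattern was N, any 2 residues and RHN, and 37 of the 41 members matched it. Foxa1, Foxa2, Foxa3 and Foxh1 did not match, which does not mean that they lack the helix. Capitals mark bases that differ from Foxf1.
Foxf1: aactccgtgcgccacaacctgtcgctcaac
Foxf2: aactccgtgcgccacaacctCtcgctcaac
Foxq1: aactccgtgcgccacaacctCtcgctcaac
Foxl1: aacAGcAtCcgccacaacctgtcgctcaac
Foxn1: aaTtcTgtTcgccaTaacctgtcCctcaac
Foxo6: aactccAtTcgGcacaacctgtcgctGCac
Foxf2 and Foxq1 each differed from Foxf1 at 1 of the 30 bases, Foxl1 at 4, and Foxn1 and Foxo6 at 5. By the standard genetic code, 0 of the 10 codons of Foxf2, Foxq1 and Foxn1 encoded another amino acid than in Foxf1, against 1 in Foxl1 and 2 in Foxo6. The stretch of 10 encoded residues was therefore identical in Foxf1, which rose in each knock-down, and in Foxn1, which rose in Ntn1 KD cells only. It was the same in Foxf2 and Foxq1, which fell in each knock-down. Foxn2 and Foxn3, which were not called in any comparison, also had 0 codons with another amino acid. Among all 37 members the number of differing bases went up to 13.

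Foxf1 and Foxf2 are close paralogs that moved in opposite directions in the knock-downs, so a longer part of their forkhead coding sequence is shown. Capitals mark the 9 of 180 bases at which the genes differ, an identity of 95%. All 9 were silent, with 0 of the 60 codons encoding another amino acid.
Foxf1: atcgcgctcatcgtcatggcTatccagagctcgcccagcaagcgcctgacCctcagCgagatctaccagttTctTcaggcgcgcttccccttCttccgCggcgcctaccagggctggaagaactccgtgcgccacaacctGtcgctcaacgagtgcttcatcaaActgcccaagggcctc
Foxf2: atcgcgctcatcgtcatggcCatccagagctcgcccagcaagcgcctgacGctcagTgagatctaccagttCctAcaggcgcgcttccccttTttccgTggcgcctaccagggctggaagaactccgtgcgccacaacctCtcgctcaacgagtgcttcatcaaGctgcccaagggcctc
Whether reads of such stretches were assigned between the genes was not tested. The longest run of identical bases between any Foxf1 and Foxf2 transcript was 41 bases, and no window of 50 bases was shared. Of the 820 pairs of members, 52 shared a run of at least 25 bases and 2 pairs shared a window of 50 bases. The read length is not given in the sources used here.

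Values are the deposited ones, which sum to about 20 M in each library. Estimated depth was 6.54 to 10.2 M reads, and a floor of 3 reads corresponded to 5.90 to 9.17 in the scaled unit, for counting error only. Each targeted gene was reduced where its label places the knock-down, Ntn1 at 359 and 431 against 1566 and 2588 in the empty vector and Unc5b at 419 and 352 against 1527 and 1573. In Unc5b KD cells Ntn1 was at 1319 and 771 (log2 fold change -0.99, limma adjusted p = 0.0638), and passed with median-of-ratios scaling (0.0476). In Ntn1 KD cells Unc5b was at 2311 and 2382 (0.60, limma adjusted p = 0.0193), a call lost with no filter (0.0516). All 11 epithelial markers reached a mean of 20, and their summed level was 62568 to 73706. The sum hides moves of single markers. Of the 11, limma called 2 higher and 3 lower in Ntn1 KD cells, where it called 15.1% of all genes. In Unc5b KD cells it called 1, which was higher, against 12% of all genes. Summed markers of fibroblasts were at 136 to 313, of endothelium at 88 to 223, of melanocytes and nerve at 44 to 86 and of muscle at 20 to 61. Immune markers summed to 456 to 1660, of which Csf1r, the colony-stimulating factor 1 receptor gene, made up most at 347 to 1569. Adgre1, Cd4, Cd8a and Lyz2 were listed at 0 in all 6 libraries.

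Levels between genes are compared only as values per kb of annotated exon, with the exon bases of all transcripts of a gene counted once. This length can exceed that of a single transcript, which lowers the level of genes with many annotated exons, such as Foxp1 (13751 bases in 34 blocks). Of the exon bases of Foxq1, 66.1% overlap a gene on the other strand. In the empty vector the highest levels per kb were those of Foxo3 (520), an AKT-regulated stress and survival factor, Foxk2 (508), Foxp4 (477) and Foxp1 (307). Foxq1 (257), Foxk1 (247), Foxn2 (191) and Foxj3 (143) followed. Foxk1 and Foxk2 are known as regulators of glycolysis and autophagy genes, and Foxp1 and Foxp4 as repressors that form dimers. The lowest of the 21 were Foxn1 (8.71), Foxf1 (8.70) and Foxl1 (6.65). Among the upper 3 the libraries overlapped, with Foxo3 at 477 and 562 per kb, Foxk2 at 585 and 431 and Foxp4 at 529 and 424, so their order is not resolved.

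**Figure D1:**
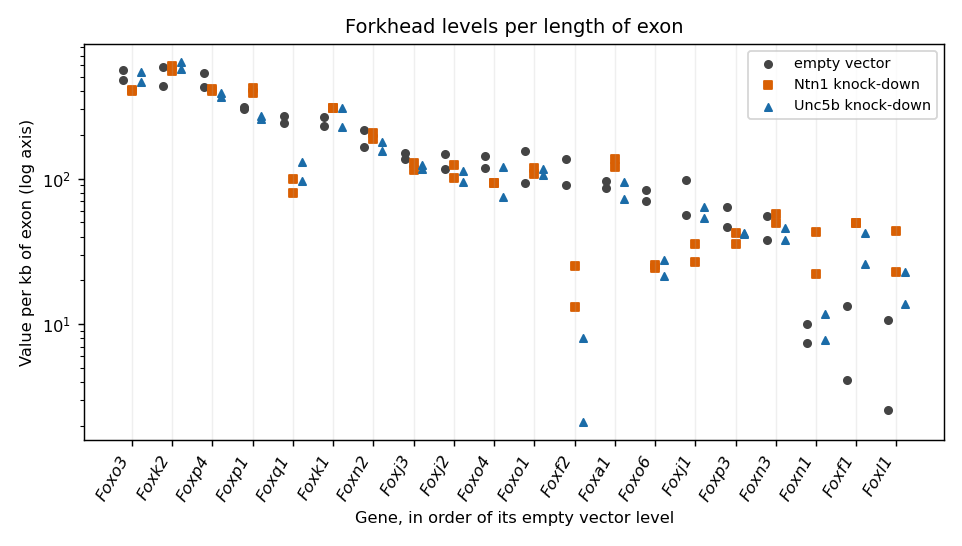
Values per kb of exon (log axis) for 20 of the 21 forkhead genes with a mean of at least 20, ordered by their empty vector mean. Each point is 1 of the 6 libraries, 2 for each group, and Foxf2 and Foxq1 lie lower, and Foxf1 and Foxl1 higher, in all 4 knock-down libraries than in both empty vector libraries.

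The other 20 members were below the filter. Of these, 12 were listed at 0 in every library (Foxb1, Foxb2, Foxd3, Foxe3, Foxi1, Foxi2, Foxi3, Foxl2, Foxn4, Foxp2, Foxr1 and Foxr2), which allows up to the floor of 3 reads in each. A further 8 were above 0 in at least 1 library. Foxa2, which directs endoderm development, reached 24, and the other 7 (Foxa3, Foxd1, Foxd2, Foxd4, Foxe1, Foxh1 and Foxs1) did not pass 7. Foxa2 was at 6 and 16 in the empty vector, 24 and 15 in Ntn1 KD cells and 0 and 0 in Unc5b KD cells. It was not tested, and the estimated reads behind these values were 3, 7, 10, 5, 0 and 0. The lowest mean among the 21 tested members was 52.7 and the highest among the others 10.2.

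**Figure D2:**
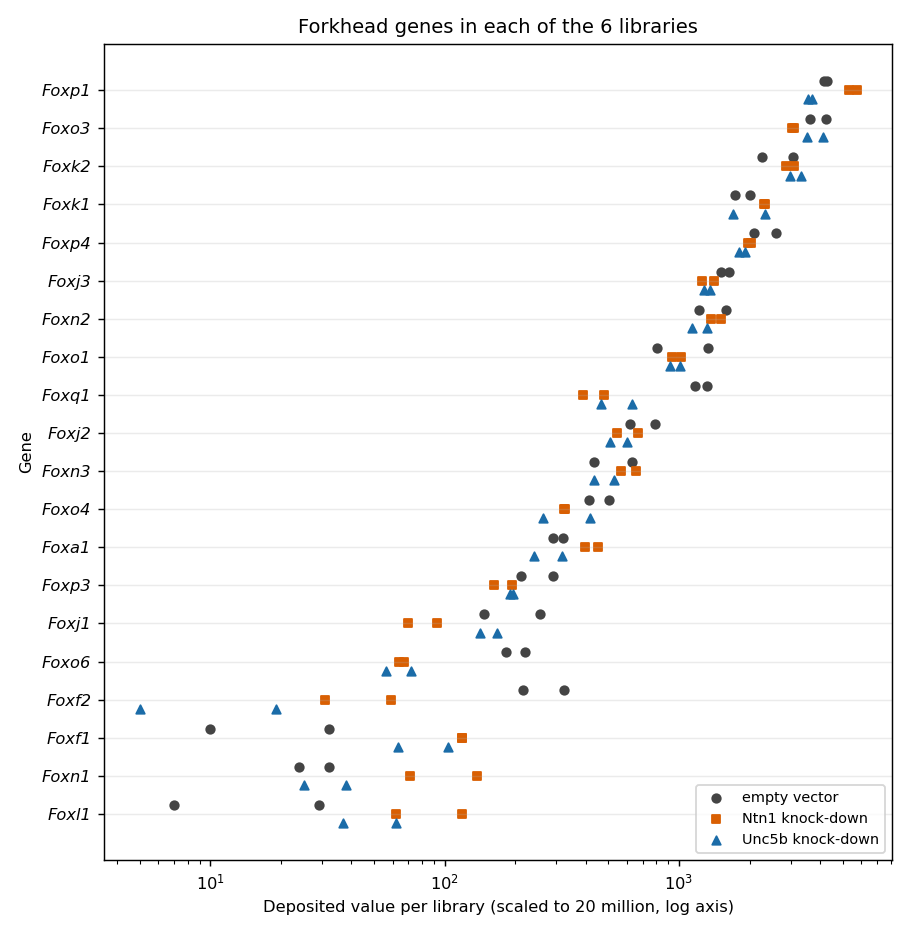
Deposited values (log axis) of 20 of the 21 tested forkhead genes in each of the 6 libraries, 2 points for each group. Genes are ordered by their mean, values of different genes are not per length, and the libraries of Foxf2 spread from 5 to 322.

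Against the empty vector, Ntn1 KD cells had 5 of the 21 tested members higher, among them Foxf1, Foxl1, Foxn1 and Foxp1, and 4 lower (Foxf2, Foxo6, Foxq1 and Foxj1). That is 9 in all or 42.9%, where limma called 15.1% of all genes tested at an adjusted p under 0.05, 8.04% higher and 7.06% lower. The median log2 fold change of the 21 was -0.09 against -0.02 over all genes, and the median absolute value 0.47 against 0.29. In Unc5b KD cells, 1 member rose (Foxf1) and 3 fell (Foxf2, Foxo6 and Foxq1), 4 of 21 or 19%, against 12% of all genes tested, 5.9% higher and 6.07% lower. The median there was -0.18 against 0.04 over all genes, and the median absolute value 0.25 against 0.27. These counts cover the 21 members that passed the filter, not all 41. Foxl1 (mean 18 in the empty vector) passed it through the knock-down libraries, and Foxf2 (mean 12 in Unc5b KD cells) through the other groups. The comparisons share the empty vector libraries. The libraries of the 2 groups did not overlap for 76.2% of the 21 members in Ntn1 KD cells, against 58.2% of all genes tested. In Unc5b KD cells the shares were 47.6% and 52%, and between the knock-downs 52.4% and 55.6%. Such separation is common with 2 libraries a group, and where it is stated for a gene it only describes the values. Without Ntn1 KD library 1 the Ntn1 count was 1 (Foxq1) and without library 2 it was 2 (Foxq1 among them), with the lone library assumed to vary like the others. With no filter the Ntn1 count was 3, and with the replicate number as a block it was 5. The number of all genes called fell as well in each of these settings, from 2314 to 1289 with no filter and 1465 with the block. The shares of 42.9% and 15.1% therefore hold for the main fit only.

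**Figure D3:**
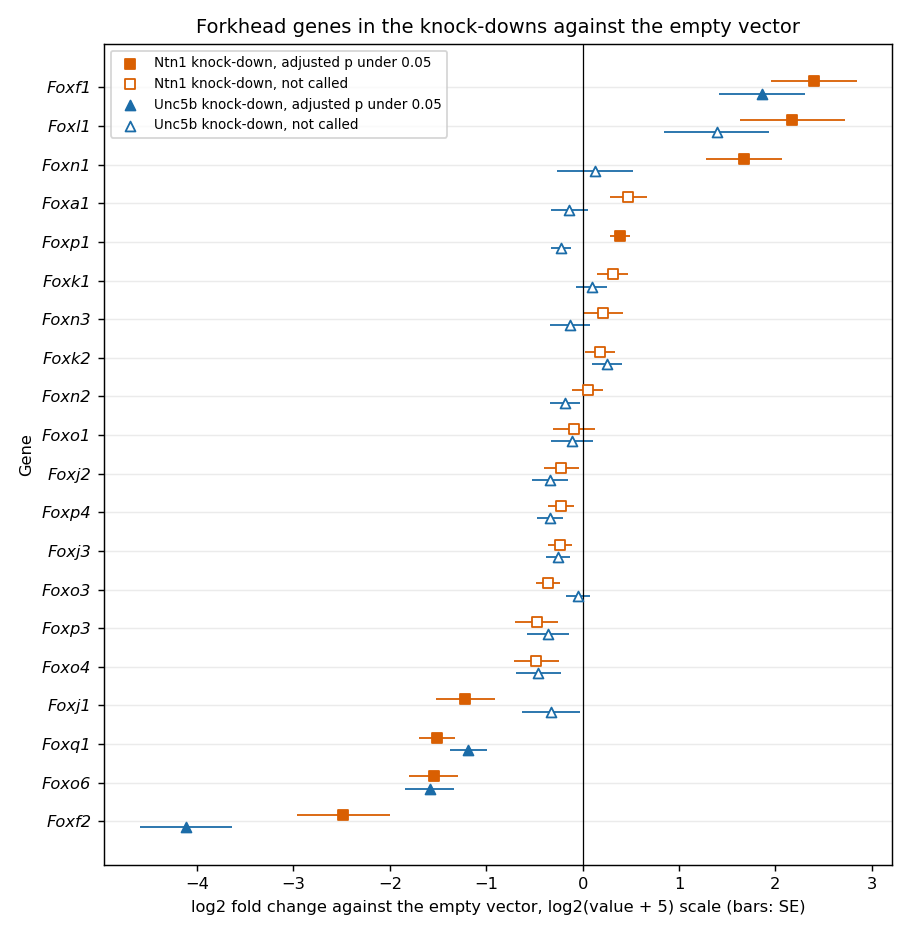
Log2 fold changes against the empty vector on the log2(value + 5) scale with standard errors, for 20 of the 21 tested members in Ntn1 KD cells (squares) and Unc5b KD cells (triangles), 2 libraries per group. Filled symbols passed at an adjusted p under 0.05, and Foxf2 is lowest and Foxf1 highest in each comparison.

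Foxf2 (ENSMUSG00000038402, chromosome 13, 31625816 to 31631403 on the plus strand of GRCm38) had the largest change of any member. It was at 322 and 215 in the empty vector, 59 and 31 in Ntn1 KD cells and 19 and 5 in Unc5b KD cells. The groups did not overlap, and the Unc5b KD libraries were lowest. The ratio of means was 5.97-fold lower in Ntn1 KD cells (log2 fold change -2.48 ± 0.48 SE, limma adjusted p = 0.0111) and 22.4-fold lower in Unc5b KD cells (-4.11 ± 0.48, adjusted p = 0.00155). The Unc5b values rest on an estimated 9 and 2 reads. Between the knock-downs the log2 difference of 1.63 ± 0.48 did not pass (adjusted p = 0.0824). The fall in Ntn1 KD cells lost its call without Ntn1 KD library 1 (adjusted p = 0.0514) or 2 (0.112) and with no filter (0.0702).

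The bases before the Foxf2 start are shown because this gene changed most (chr13:31625566-31625815, plus strand, RefSeq on GRCm38.p6). The window of 250 bases was 71.6% G and C, against a median of 52.4% over all promoters in the table.
Foxf2: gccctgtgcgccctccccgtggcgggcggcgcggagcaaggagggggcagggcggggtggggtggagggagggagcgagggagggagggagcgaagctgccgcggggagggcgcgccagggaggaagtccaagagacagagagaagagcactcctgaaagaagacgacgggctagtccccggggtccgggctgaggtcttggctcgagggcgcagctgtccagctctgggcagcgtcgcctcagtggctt
No match to the forkhead letters GTAAACA, the GLI letters GACCACCCA, the TEAD letters GGAATG or the AP-1 letters TGACTCA was found there on either strand. In windows that also hold 50 bases after the start, these letters were found in 3.65%, 0.253%, 14.7% and 5.20% of all 32851 promoters. Of 15 promoter windows of 12 tested members, 1 held the forkhead letters, that of Foxa1, which is shown with the match in capitals (chr12:57546112-57546361, minus strand).
Foxa1: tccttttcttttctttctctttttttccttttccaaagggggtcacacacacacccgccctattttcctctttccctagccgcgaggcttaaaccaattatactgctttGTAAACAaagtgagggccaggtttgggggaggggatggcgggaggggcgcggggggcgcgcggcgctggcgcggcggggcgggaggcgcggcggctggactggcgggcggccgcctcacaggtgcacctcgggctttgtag
The GLI letters were in none of the 15 windows, the TEAD letters in 2 (Foxo3 and Foxp1) and the AP-1 letters in 1 (Foxn3). No window was available for the called members Foxf1, Foxq1, Foxl1, Foxj1 and Foxo6. With the GLI letters in 0.253% of all promoters, a match in 15 windows was unlikely beforehand, so its absence carries no weight. A match is a description of the letters and not a binding site.

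Foxf1 (ENSMUSG00000042812, chromosome 8, 121084386 to 121088144 on the plus strand), the paralog of Foxf2, rose. It was at 10 and 32 in the empty vector, 119 and 119 in Ntn1 KD cells and 103 and 63 in Unc5b KD cells. Every knock-down library was above both empty vector libraries, whose values stand for an estimated 5 and 14 reads. The ratio of means was 5.67-fold higher in Ntn1 KD cells (log2 fold change 2.40 ± 0.45, adjusted p = 0.00934) and 3.95-fold higher in Unc5b KD cells (1.86 ± 0.45, adjusted p = 0.0313). The Unc5b call was lost without any 1 library other than empty vector library 2, that is its own library 1 (adjusted p = 0.163) and 2 (0.0826), Ntn1 KD library 1 (0.0811) and 2 (0.0801) and empty vector library 1 (0.0597). It was also lost with no filter (0.133), without the variance trend (0.0724), with only the groups compared (0.0849) and with the replicate block (0.0693). The Ntn1 call was lost without Ntn1 KD library 1 (0.0891) or 2 (0.0877) and with no filter (0.0624).

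Foxl1 (ENSMUSG00000097084, chromosome 8, 121127940 to 121130644 on the plus strand), a mesenchymal factor of the gut wall, was at 29 and 7 in the empty vector, 62 and 119 in Ntn1 KD cells and 62 and 37 in Unc5b KD cells. The empty vector libraries, at an estimated 15 and 3 reads, were lowest. It rose 5.03-fold in Ntn1 KD cells (log2 fold change 2.17 ± 0.54, adjusted p = 0.0312), while the Unc5b difference of 1.39 ± 0.54 did not pass (adjusted p = 0.144). The Ntn1 call was lost without Ntn1 KD library 1 (0.0920) or 2 (0.229), without empty vector library 2 (0.0897), with no filter (0.128), without the variance trend (0.0756) and with the replicate block (0.0593). The Unc5b difference passed without empty vector library 1 (0.0224).

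FOXF and FOXL1 factors are known from mesenchymal cells, so markers of other cell types are given beside them. Of 9 fibroblast markers, 2 reached a mean of 20, Pdgfra at 90 and 69 in the empty vector, 193 and 113 in Ntn1 KD cells and 169 and 109 in Unc5b KD cells, and Col1a1 at 18 to 40 over all libraries. The summed fibroblast level was 136 and 142, 313 and 217, and 241 and 144 in the same order, while Dcn and Lum did not pass 4. Pdgfrb was at 8 and 7, 36 and 31, and 0 and 2, below the filter. Cdh5, an endothelial cadherin gene, was at 0 and 0 in the empty vector, 86 and 113 in Ntn1 KD cells and 2 and 0 in Unc5b KD cells, while Pecam1, the other endothelial marker that reached the filter, was at 88 to 107 over all libraries, Emcn was listed at 0 throughout and Kdr and Vwf did not pass 2. Csf1r, the main immune marker, was at 1213 and 1511, 347 and 443, and 1569 and 1003, and fell in Ntn1 KD cells (log2 fold change -1.77, adjusted p = 0.00193). Cd68, the other immune marker that reached the filter, was at 81 and 25, 107 and 122, and 83 and 90, and was not called. Ptprc did not pass 5 and Itgam did not pass 2 in any library. The part of other cells in the forkhead values was not tested, and fewer cells of a type and less RNA per cell cannot be told apart in these bulk samples.

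Foxq1 (ENSMUSG00000038415, chromosome 13, 31556134 to 31560976 on the plus strand) lies 64.8 kb from Foxf2 and also fell in each knock-down. It was at 1171 and 1315 in the empty vector, 480 and 388 in Ntn1 KD cells and 633 and 466 in Unc5b KD cells. Every knock-down library was below both empty vector libraries. The ratio of means was 2.86-fold lower in Ntn1 KD cells (log2 fold change -1.51 ± 0.19, adjusted p = 0.00162) and 2.26-fold lower in Unc5b KD cells (-1.18 ± 0.19, adjusted p = 0.00607). Both calls held in each setting run for single genes, which leaves out the crossed replicate block. Exons of A530084C06Rik on the other strand overlap 3200 of its 4843 exon bases, or 66.1%. Without the counting and strand settings the values of these genes cannot be told apart, and A530084C06Rik was at 548 and 574, 271 and 232, and 314 and 229 in the same order of groups.

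Foxq1, Foxf2 and Foxc1, a forkhead gene that is not a member here, form a cluster on chromosome 13. Within 1 Mb of Foxq1 or Foxf2, 6 genes were tested, these 3 with A530084C06Rik, Gmds and Exoc2. With Ntn1 KD 5 of the 6 fell and in Unc5b KD cells 6 of 6, against 7.06% and 6.07% of all genes called lower. Foxc1 was at 2388 and 3309 in the empty vector, 901 and 994 in Ntn1 KD cells and 1430 and 1045 in Unc5b KD cells. Gmds, which encodes an enzyme of GDP-fucose synthesis, was at 994 and 1443, 459 and 407, and 611 and 489. Exoc2, an exocyst subunit gene, was the exception in Ntn1 KD cells, at 880 and 883, 1063 and 1119, and 652 and 542. The window was chosen after the values were seen and was set on Foxq1 and Foxf2, which had fallen. The genes of a window are not independent, and the values of A530084C06Rik and Foxq1 cannot be told apart. The counts therefore cannot be weighed against the shares of all genes.

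Foxf1, Foxc2 and Foxl1 form the related cluster on chromosome 8, and 26 genes within 1 Mb of Foxf1 or Foxl1 were tested. In Ntn1 KD cells 3 rose (Foxf1, Foxl1 and Irf8) and 3 fell (Zdhhc7, Fbxo31 and Zcchc14), and in Unc5b KD cells 1 was called (Foxf1, higher) and 25 were not. Over all genes 8.04% rose and 7.06% fell in the former and 12% were called in the latter. The shares of the 26 were above these in Ntn1 KD cells and below in Unc5b KD cells. The 26 include Foxf1 and Foxl1, which set the window, and single genes move such shares. Foxc2, which lies between Foxf1 and Foxl1, was at 763 and 565, 896 and 856, and 716 and 611, and did not pass in either comparison (adjusted p = 0.156 and 0.977). Fendrr, the noncoding gene 1.28 kb from Foxf1, was at 0 and 5, 17 and 37, and 15 and 5, below the filter. Irf8, an interferon regulatory factor gene 328 kb from Foxf1, was at 10 and 18, 69 and 80, and 41 and 37. Its mean of 14 in the empty vector was under the filter, which Irf8 passed through the knock-down libraries.

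**Figure D4:**
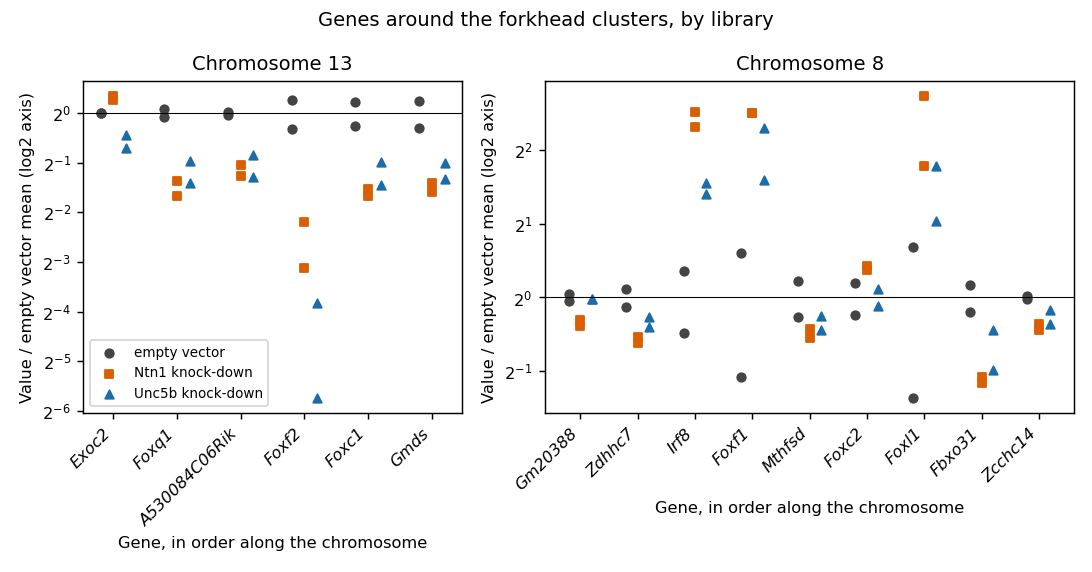
Values divided by the empty vector mean (log2 axis) for the genes tested within 1 Mb of Foxq1 or Foxf2 (chromosome 13, 6 genes), and of Foxf1 or Foxl1 (chromosome 8, the genes within 100 kb or called in a comparison with the empty vector). Each point is 1 library, and Foxq1, A530084C06Rik, Foxf2, Foxc1 and Gmds lie below 1 in all 4 knock-down libraries, whereas Foxf1 and Foxl1 lie above 1.

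Foxo6 (ENSMUSG00000052135, chromosome 4, 120267079 to 120287349 on the minus strand), a FOXO factor known mainly from brain and liver, fell by about the same size in each knock-down. It was at 183 and 220 in the empty vector, 67 and 64 in Ntn1 KD cells and 56 and 72 in Unc5b KD cells. The ratio of means was 3.08-fold lower in Ntn1 KD cells (log2 fold change -1.54 ± 0.25, adjusted p = 0.0056) and 3.15-fold lower in Unc5b KD cells (-1.59 ± 0.25, adjusted p = 0.00604). The difference between the knock-downs was 0.04 (95% interval -0.54 to 0.62). The Ntn1 call was lost without Ntn1 KD library 1 (0.0566) or 2 (0.0603).

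The other FOXO genes did not pass in any comparison. Foxo3 was at 3614 and 4258 in the empty vector, 3089 and 3030 in Ntn1 KD cells and 4102 and 3511 in Unc5b KD cells, a log2 difference of -0.36 ± 0.13 in Ntn1 KD cells (adjusted p = 0.0997) that passed without empty vector library 1 (0.0404). Foxo1, known from insulin and growth factor signalling, was at 806 and 1335, 1018 and 936, and 1009 and 920, where the empty vector libraries enclose all others. Foxo4 was at 415 and 501, 323 and 327, and 417 and 262, with log2 differences of -0.48 ± 0.23 (adjusted p = 0.206) and -0.46 ± 0.23 (adjusted p = 0.252). Exons of Gm20402 on the other strand overlap 7.78% of the exon bases of Foxo1.

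Of 36 FOXO regulators listed and tested (kinases, phosphatases, 14-3-3 proteins and others), 2 rose and 2 fell in Ntn1 KD cells, and 3 rose and 4 fell in Unc5b KD cells, against 15.1% and 12% of all genes called in these comparisons. The median log2 fold changes were -0.04 and -0.03, against -0.02 and 0.04 over all genes. Ywhag, a 14-3-3 protein gene, was at 8427 and 6521 in the empty vector, 14621 and 13173 in Ntn1 KD cells and 13963 and 14940 in Unc5b KD cells (adjusted p = 0.00406 and 0.00391). Irs2, which encodes an insulin receptor substrate and is also a known FOXO target, was at 3211 and 2735, 1662 and 1810, and 1507 and 1612 (adjusted p = 0.0056 and 0.0031). Pik3cb fell in each knock-down (log2 fold change -0.75 and -0.52), and Pik3r3 rose in Ntn1 KD cells (0.87). In Unc5b KD cells Akt1 rose (0.69) and Pik3r2 fell (-0.74).

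Of 42 FOXO targets listed, 34 were tested, of which 6 rose and 2 fell in Ntn1 KD cells and 4 rose and 6 fell in Unc5b KD cells. The shares over all genes were 8.04% higher and 7.06% lower with Ntn1 KD, and 5.9% and 6.07% with Unc5b KD. The median log2 fold changes were -0.01 and 0.02, against -0.02 and 0.04 over all genes. Ccnd2, a cyclin D gene known as repressed by FOXO factors, was at 61 and 190 in the empty vector, 1187 and 1052 in Ntn1 KD cells and 474 and 572 in Unc5b KD cells. Txnip, a thioredoxin inhibitor gene, was at 75 and 105, 597 and 575, and 981 and 690. Both rose in each knock-down (adjusted p = 0.00171 and 0.0123 for Ccnd2, 0.000358 and 0.000298 for Txnip). Sesn3, a sestrin gene induced by FOXO factors, was at 533 and 1061, 566 and 535, and 96 and 63, and fell in Unc5b KD cells (log2 fold change -3.19, adjusted p = 0.000827). Rbl2, a pocket protein gene, fell in each knock-down (-0.89 and -1.35), and Cdkn1a rose in Ntn1 KD cells (1.36). Cdkn1b, the p27 gene, fell in Unc5b KD cells (-1.04, adjusted p = 0.00735). Between the knock-downs 4 targets were higher in Ntn1 KD cells (Sesn3, Bnip3, Cdkn1b and Gadd45a) and 0 were lower, while at an unadjusted p under 0.05 limma gave 9 higher and 2 lower.

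Foxp1 (ENSMUSG00000030067, chromosome 6, 98925338 to 99522721 on the minus strand), a repressor with roles in many epithelia and in blood cells, showed the smallest of the called differences. It was at 4170 and 4285 in the empty vector, 5728 and 5321 in Ntn1 KD cells and 3542 and 3681 in Unc5b KD cells. No groups overlapped. Ntn1 KD cells were 1.31-fold above the empty vector (log2 fold change 0.38 ± 0.10, adjusted p = 0.0394) and 1.53-fold above Unc5b KD cells (0.61 ± 0.10, adjusted p = 0.0122). The Unc5b difference from the empty vector of -0.23 ± 0.10 did not pass (adjusted p = 0.201). The call against the empty vector was lost without any 1 of the 6 libraries (adjusted p = 0.0581 to 0.293), with no filter (0.0717), without the variance trend (0.130), with only the groups compared (0.0578) and with the replicate block (0.0961). The call between the knock-downs was lost without Ntn1 KD library 1 (0.198) or 2 (0.139), without Unc5b KD library 1 (0.0756) or 2 (0.0619) and without the variance trend (0.0751).

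Foxp1 was among the 2 of 21 members called between the knock-downs, 9.52% against 7.1% of all genes tested by limma. Both were higher with Ntn1 KD, where 4.15% of all genes were higher and 2.95% lower. Of the 21 members, 0 were called lower, and at an unadjusted p under 0.05 limma gave 5 higher and 2 lower. The related repressor Foxp4 was at 2606 and 2090 in the empty vector, 2028 and 1966 in Ntn1 KD cells and 1795 and 1904 in Unc5b KD cells. It did not pass in either comparison with the empty vector (adjusted p = 0.299 and 0.149), although it passed in Unc5b KD cells without empty vector library 2 (0.0438).

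Foxp3, which defines regulatory T cells, was at 212 and 290 in the empty vector, 162 and 193 in Ntn1 KD cells and 190 and 195 in Unc5b KD cells. It did not pass (log2 difference -0.48 ± 0.22 and -0.36 ± 0.22, adjusted p = 0.19 and 0.347). Ptprc, the pan-leukocyte gene, was at 0 to 5 and Cd3e at 0 to 2 over the 6 libraries. Of the 4577 exon bases of Foxp3, 853 are shared with Flicr, 590 with Ccdc22, 373 with Gm36995 and 266 with Ppp1r3f. Ccdc22, on the other strand, was at 578 and 736, 516 and 538, and 504 and 468. Whether the reads listed under Foxp3 come from it or from these genes was not tested.

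Foxn1 (ENSMUSG00000002057, chromosome 11, 78357577 to 78386558, minus strand) stood at 24 and 32 in the empty vector, 71 and 138 in Ntn1 KD cells and 38 and 25 in Unc5b KD cells. The Ntn1 libraries were highest but far apart, and the other groups overlapped. It rose 3.73-fold in Ntn1 KD cells (log2 fold change 1.67 ± 0.39, adjusted p = 0.0251). The difference between the knock-downs of 1.54 ± 0.39 missed the threshold (adjusted p = 0.055) but passed with median-of-ratios scaling (0.0439), with a pseudocount of 20 (0.0488), with only the groups compared (0.0333) and without empty vector library 1 (0.0370) or 2 (0.0366). The call against the empty vector was lost without Ntn1 KD library 1 (0.0528) or 2 (0.202), without empty vector library 1 (0.0616), with no filter (0.0949) and with the replicate block (0.0531). Foxn2 (1588 and 1221, 1515 and 1376, and 1139 and 1316) and Foxn3 (436 and 633, 568 and 654, and 530 and 433) did not pass in any comparison.

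Foxj1 (ENSMUSG00000034227, chromosome 11, 116330704 to 116335399, minus strand), the master regulator of motile cilia, was at 147 and 256 in the empty vector, 93 and 70 in Ntn1 KD cells and 141 and 167 in Unc5b KD cells. The Ntn1 libraries were lowest, and the empty vector and Unc5b libraries overlapped. It was 2.47-fold lower in Ntn1 KD cells (log2 fold change -1.22 ± 0.30, adjusted p = 0.0307). The difference between the knock-downs, -0.89 ± 0.30, did not pass (adjusted p = 0.127), although it passed without empty vector library 1 (0.0497). The call against the empty vector was lost without Ntn1 KD library 1 (0.105) or 2 (0.207), empty vector library 2 (0.119) or Unc5b KD library 1 (0.0515) or 2 (0.0538). It was also lost with no filter (0.104), without the variance trend (0.0636), with only the groups compared (0.0547) and with the replicate block (0.0624).

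Of 26 genes listed for the motile cilia programme, 24 were in the table and 6 reached the filter. In Ntn1 KD cells limma called 0 of the 6 (0 higher and 1 lower at an unadjusted p under 0.05), and in Unc5b KD cells 1 fell, the dynein heavy chain gene Dnah11 (438 and 425 in the empty vector against 265 and 250, adjusted p = 0.0215). Foxj2 (621 and 791, 542 and 667, and 601 and 510) and Foxj3 (1507 and 1635, 1415 and 1260, and 1357 and 1274) did not pass in any comparison.

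Among the remaining members, Foxa1, a pioneer factor of glandular epithelia, was at 289 and 320 in the empty vector, 452 and 398 in Ntn1 KD cells and 316 and 241 in Unc5b KD cells. The Ntn1 libraries were highest, but the log2 difference of 0.47 ± 0.19 did not pass (adjusted p = 0.14), nor did that from Unc5b KD cells (0.61 ± 0.19, adjusted p = 0.101). Foxk1 was at 1735 and 2017, 2316 and 2330, and 2332 and 1707, and Foxk2 at 3074 and 2266, 3108 and 2871, and 2967 and 3331. Neither passed, although Foxk2 passed in Unc5b KD cells without empty vector library 1 (log2 fold change 0.47, adjusted p = 0.0445).

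Of 31 forkhead cofactor genes tested, 4 rose and 6 fell in Ntn1 KD cells and 3 rose and 4 fell in Unc5b KD cells. Among all genes 15.1% and 12% were called. The list medians were -0.05 and -0.02 on the log2 scale, against -0.02 and 0.04. Tle4, a Groucho corepressor gene, was at 627 and 501 in the empty vector, 147 and 153 in Ntn1 KD cells and 293 and 329 in Unc5b KD cells. It fell in each knock-down (log2 fold change -1.87 and -0.84, adjusted p = 0.000652 and 0.0226) and was lower in Ntn1 KD than in Unc5b KD cells (-1.03, adjusted p = 0.0168). Ctbp2, the gene of a corepressor that binds FOXP factors, was at 1330 and 1242, 2903 and 2819, and 1682 and 1890. It rose in each knock-down (1.15 and 0.47, adjusted p = 0.000712 and 0.0362) and was higher in Ntn1 KD than in Unc5b KD cells (0.68, adjusted p = 0.0135). Nfatc1 fell in Ntn1 KD cells (-0.76, adjusted p = 0.00754). In Unc5b KD cells Tle6 rose (1.92, adjusted p = 0.0406), at 6 and 9 in the empty vector against 30 and 58. Both empty vector values of Tle6 were under the filter, which it passed through the knock-down libraries, and near the floor of 3 reads. Esr1 fell in Unc5b KD cells (-1.66, adjusted p = 0.0252), at 94 and 158 in the empty vector against 49 and 25.

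Of 17 hedgehog pathway genes listed, 10 were tested, of which 0 rose and 2 fell in Ntn1 KD cells and 1 rose and 4 fell in Unc5b KD cells. Of all genes tested, 8.04% rose and 7.06% fell in Ntn1 KD cells and 5.9% and 6.07% in Unc5b KD cells. At an unadjusted p under 0.05 limma gave 1 higher and 2 lower in Ntn1 KD cells. The median log2 fold changes were -0.07 and -0.56, against -0.02 and 0.04 over all genes. Hhip, a hedgehog-binding inhibitor that the pathway induces, was at 352 and 556 in the empty vector, 67 and 64 in Ntn1 KD cells and 21 and 19 in Unc5b KD cells (adjusted p = 0.000879 and 0.000281). Ptch1, the receptor gene that is itself a hedgehog target, was at 1366 and 1427, 602 and 557, and 774 and 838 (adjusted p = 0.000727 and 0.00684). Both fell in each knock-down. Gas1, a hedgehog co-receptor gene, was at 77 and 281, 55 and 46, and 28 and 2 and fell in Unc5b KD cells (log2 fold change -3.33, adjusted p = 0.0261). Gli3, a transcription factor of the pathway, fell in Unc5b KD cells (-0.63, adjusted p = 0.00832) and Sufu rose (0.63, adjusted p = 0.0459). Foxf2 and Hhip were lower in every knock-down library than in the empty vector, while Foxf1 and Foxl1 were higher.

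**Figure D5:**
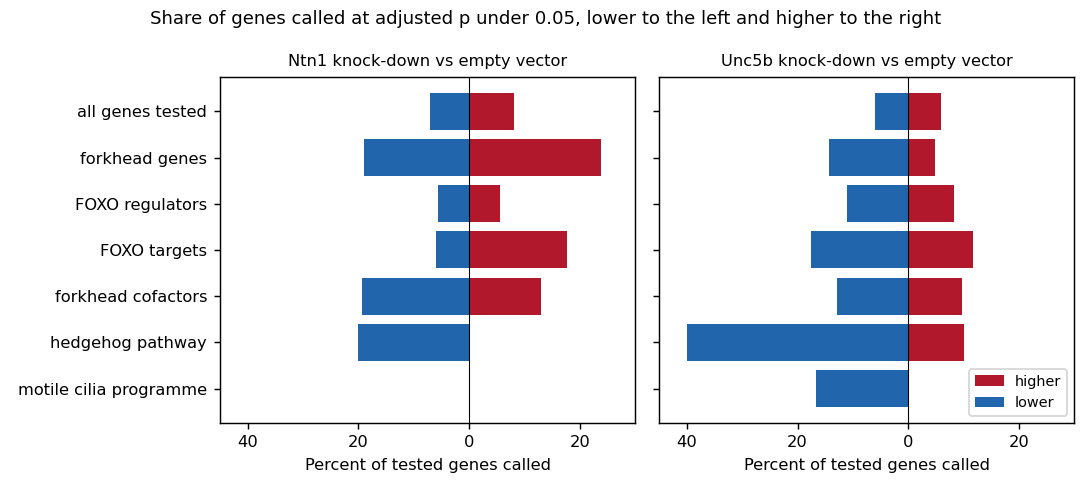
Percent of the tested genes of each list called at an adjusted p under 0.05, lower to the left and higher to the right, in Ntn1 KD cells (left panel) and Unc5b KD cells (right panel) against the empty vector. The lists hold 6 to 36 tested genes and the forkhead genes 21, so single genes move a bar, and the hedgehog list reaches farthest to the left in Unc5b KD cells with 4 of 10 genes.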

How the data were processed

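RNA-seq values of 6 libraries were used. Every deposited column has only whole numbers, with a total near 20 M, so these deposited values were handled as a score, scaled and rounded before deposit, and not as raw counts. Per the submitters' processing notes, STAR, HTSeq and Picard were used on GRCm38 (mm10), with no versions named. How reads were counted and scaled, including the annotation and strand setting, is not given in the sources used here. Depth was estimated from the spacing of values up to 150, and no count model was fitted. Genes averaging 20 or more (15330) were tested on log2(value + 5) by limma 3.58.1 (R 4.3.3), 2-sided, with 3 groups and Benjamini-Hochberg adjustment over all genes. The variance of each gene had 3 residual degrees of freedom. It was moderated toward a variance trend over all tested genes, with 5.33 prior degrees of freedom. Fold changes on this scale understate changes of low genes, and ratios are of group means as deposited. The code was tested on simulated data. Gene positions, exon lengths and overlaps came from GENCODE M21, which held 49326 of 49671 identifiers. Promoters came from RefSeq on GRCm38.p6, which held 27 of the 41 members.

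Tested members were named with their values, and of each list up to 4 called genes with the largest change per comparison. The values of 1 tested member, 1 listed gene and some sequences are not reported here, and counts include these genes. The members, lists and tests were chosen with earlier results of these data known. With 2 libraries a side, exact permutation p-values have a minimum of 0.333, so none was computed. Alternatives were other pseudocounts, no filter, median-of-ratios scaling, no variance trend, only the groups compared, a replicate block and leaving out each library.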

Additional observations from a re-analysis of the deposited data

How the results depend on the processing

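The settings varied were the pseudocount, filter, scaling, variance trend, groups fitted, replicate block and libraries left out. Of the 63 member values (21 members in 3 comparisons), 0 changed sign while called in the main or the altered fit. Sign changes of values called in neither fit were not counted. Of 15 member calls, 0 were lost with a pseudocount of 1 or 20 or with median-of-ratios scaling, 7 with no filter, 5 without the variance trend, 3 with only the groups compared and 5 with the replicate block. Leaving out a library lost 3 to 11 of the 15 calls, and gained up to 5. The depth of 6.54 to 10.2 M reads limits most Foxf1, Foxf2, Foxl1 and Foxn1, whose lowest libraries hold 5, 2, 3 and 11 estimated reads.

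The number of members called in Ntn1 KD cells, 9, was 3 with no filter, 5 with the replicate block and 1 to 8 when a library was left out. In Unc5b KD cells, 4, it was 3 to 5 when a library was left out. Between the knock-downs, 2, it was 1 without the variance trend and 0 to 4 when a library was left out. The number of all genes called in Ntn1 KD cells, 2314, was 1289 unfiltered, 1462 without the variance trend, 1465 with the replicate block and 507 to 2769 when a library was left out. In Unc5b KD cells, 1835, it was 791 unfiltered, 1115 lacking the variance trend, 950 with only the groups compared, 1102 with the replicate block and 680 to 2428 when a library was left out. Between the knock-downs, 1088, it was 302 unfiltered, 454 without the variance trend, 1856 with only the groups compared, 459 with the replicate block and 34 to 1842 when a library was left out. The member count in Ntn1 KD cells was also 6 without the variance trend and 7 with only the groups compared. In Unc5b KD cells it was 3 in each of these settings, with no filter and with the replicate block, where Foxf1 lost its call. Between the knock-downs it was 3 with a pseudocount of 20, with median-of-ratios scaling and with only the groups compared. The cause of these changes was not tested.

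The replicate numbers are not stated to mark a shared culture or day. Deviations of same-numbered libraries correlated at 0.16 for Ntn1 KD cells with the empty vector, -0.45 for Unc5b KD cells with the empty vector and -0.17 between the knock-downs, across genes. With the Unc5b numbers crossed in the replicate block, an alternative added after seeing the data, 10, 5 and 6 members and 4151, 3585 and 2617 genes were called in the 3 comparisons.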
